A study of Mus musculus with 6 samples.

Results

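The proteasome genes of iGMPs, a mouse line of captured granulocyte-macrophage progenitors, were followed through loss of the chromatin assembly factor CAF-1 and through loss of HOXA9 activity. They were taken by symbol, as every gene whose symbol began with Psma, Psmb, Psmc, Psmd, Psme, Psmf or Psmg, and the 4 symbols containing -ps, which mark pseudogenes, were left out. This gave 49 of the 34199 gene symbols in the count files. Of these, 31 encoded constitutive subunits of the particle and 5 were the immune genes Psmb8, Psmb9, Psmb10, Psme1 and Psme2. The remaining 13 were assembly chaperones, other regulators, the testis and thymus subunits Psma8 and Psmb11, and Psmc3ip, which is no subunit.

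The cells came from the bone marrow of C57Bl/6 mice carrying the Lys-GFP reporter and were immortalized with HOXA9 fused to the ligand-binding domain of an estrogen receptor, so that the fusion acted only while estradiol was present. All 6 libraries carried that fusion, and growth medium held stem cell factor and 150 ng/ml estradiol. In CAF-1 OFF (2 libraries), 500 µM IPTG had been given for 24 h to induce an shRNA against Chaf1b, the gene of a CAF-1 subunit. The control (2 libraries) was treated with IPTG for 24 h, at a concentration that its label did not give, and in the study such cells carry a vector with a spacer in place of the shRNA. In HOXA9 OFF (2 libraries), estradiol had been washed out 24 h earlier, and whether these cells received IPTG was not stated. The study worked with clonal lines, but the labels did not name the clone behind a library, nor did they say that libraries of a group came from separate cultures, so p-values measure the spread between these libraries, which may be technical.

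The proteasome degrades proteins tagged with ubiquitin. Its 20S core is a barrel of α rings around β rings, and the proteolytic sites lie on the β subunits Psmb5, Psmb6 and Psmb7. A 19S cap, with a ring of ATPases (Psmc genes) and a set of non-ATPase subunits (Psmd genes), recognizes, unfolds and feeds in the substrate. In cells exposed to interferon, and constitutively in many blood cells, the catalytic subunits are replaced during assembly by Psmb8, Psmb9 and Psmb10, and the PA28 activator of Psme1 and Psme2 can take the place of a cap. Dedicated chaperones (Psmg genes for the 20S core, Psmd5, Psmd9 and Psmd10 for the 19S cap) assist assembly and do not remain in the finished particle.

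To show the sequence around the genes on which the results turned, the stretches directly upstream of the RefSeq start (GRCm38.p6) of Psmg1, Psmg3, Psmb5, Psmb8 and Psmb9 are given. Psmg1 and Psmg3 were 2 of the 3 chaperone genes that fell in HOXA9 OFF, and Psmb8 and Psmb9 are the immune genes set against constitutive ones such as Psmb5. Each stretch is written on the strand of its gene and ends at the base before the start: chr16:95990961-95991210 (minus strand) for Psmg1, chr5:139826895-139827144 (minus) for Psmg3, chr14:54617996-54618245 (minus) for Psmb5, chr17:34197945-34198194 (plus) for Psmb8 and chr17:34187331-34187555 (minus) for Psmb9. The Psmb9 stretch holds 225 bases, because the neighbouring gene Tap1 starts beyond it on the other strand, and the other stretches hold 250. Capitals mark matches to any of the motifs searched on both strands: the core of the antioxidant response element read by NFE2L1 and NFE2L2 (TGACNNNGC), the CCAAT box, the E-box CACGTG, a core of the interferon-stimulated response element and the gamma-interferon activated site (TTCNNNGAA).
Psmg1: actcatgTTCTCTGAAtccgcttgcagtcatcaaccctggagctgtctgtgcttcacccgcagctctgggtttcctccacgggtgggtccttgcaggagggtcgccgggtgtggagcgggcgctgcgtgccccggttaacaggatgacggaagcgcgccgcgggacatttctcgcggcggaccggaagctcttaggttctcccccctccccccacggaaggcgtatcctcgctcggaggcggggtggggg
Psmg3: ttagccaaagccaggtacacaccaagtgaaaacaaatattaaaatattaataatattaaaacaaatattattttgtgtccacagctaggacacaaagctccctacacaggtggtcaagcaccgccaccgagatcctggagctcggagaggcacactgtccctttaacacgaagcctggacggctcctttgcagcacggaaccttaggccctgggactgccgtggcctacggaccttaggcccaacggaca
Psmb5: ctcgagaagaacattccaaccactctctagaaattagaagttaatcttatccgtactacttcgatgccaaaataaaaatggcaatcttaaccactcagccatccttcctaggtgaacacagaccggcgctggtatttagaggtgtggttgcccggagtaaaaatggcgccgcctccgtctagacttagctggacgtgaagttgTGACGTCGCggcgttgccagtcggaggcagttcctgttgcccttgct
Psmb8: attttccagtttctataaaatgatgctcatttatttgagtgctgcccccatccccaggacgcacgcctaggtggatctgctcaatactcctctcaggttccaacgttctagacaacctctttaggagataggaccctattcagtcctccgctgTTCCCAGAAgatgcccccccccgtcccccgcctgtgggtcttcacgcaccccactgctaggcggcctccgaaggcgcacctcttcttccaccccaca
Psmb9: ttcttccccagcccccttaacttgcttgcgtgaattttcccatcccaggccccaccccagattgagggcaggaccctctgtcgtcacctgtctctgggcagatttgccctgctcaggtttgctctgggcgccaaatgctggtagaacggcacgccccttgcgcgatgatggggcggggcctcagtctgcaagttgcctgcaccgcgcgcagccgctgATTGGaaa

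A promoter was available for 41 of the 49 genes (44 promoters of 32851 in the table). The antioxidant core stood within 250 bases upstream in 5 of the 44, or 11.4%, against 10.2% of all promoters, in Psmb5, Psmb6, Psmc6, Psmd9 and Psmd12. CCAAT stood in 34.1% of the 44 against 33.8% of all, and CACGTG in 9.09% against 6.02%. The interferon-stimulated response element core stood in 3 of the 44, or 6.82% against 2.98%, in Psmb3, Psmd4 and Psmd9. It was found in 0 of the 6 promoters of immune genes. TTCNNNGAA was found upstream of 2 of the genes, Psmb8 (97 bases before the start) and Psmg1 (243 bases before it), or 4.55% of the promoters against 7.02% of all. None of the motifs was found in the printed stretch of Psmg3. A match describes the letters and was not tested as a binding site.

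Between 16773560 and 25170898 counts were assigned to genes in a library, and proteasome genes took between 0.759% and 1.02% of them. Chaf1b stood at 90.0 and 105 CPM (counts-per-million of gene-assigned counts after TMM scaling) in the control and at 17.8 and 12.1 in CAF-1 OFF, so that it fell by 6.53-fold (edgeR's quasi-likelihood test, FDR 0.0198). In HOXA9 OFF it stood at 64.6 and 61.4 CPM. Hoxa9 counts do not check the estradiol washout, which acts on the protein. Summed markers of maturing neutrophils and monocytes were at 51.2 and 30.8 CPM in the control, 104 and 129 in CAF-1 OFF and 4167 and 2562 in HOXA9 OFF, where all 9 were called higher (0 of 9 in CAF-1 OFF). Summed markers of myeloid progenitors were between 11866 and 17829 CPM in all 6 libraries, with 2 of 10 called higher and 4 lower in HOXA9 OFF. Mpo, at 4109 to 8546 CPM, was the largest part in each library, and members moved in opposite directions. From control to HOXA9 OFF, Flt3 went from 237 and 329 CPM to 5.02 and 3.46 and Cd34 from 1805 and 1797 to 484 and 507. Kit went from 710 and 542 CPM to 300 and 262, while Fcgr3 rose from 95.7 and 75.6 to 279 and 253. Summed markers of erythroid cells and megakaryocytes were at 26.0 and 30.9 CPM in the control, 78.2 and 37.6 in CAF-1 OFF and 67.4 and 77.9 in HOXA9 OFF, where 1 of the 5 tested, the megakaryocyte marker Itga2b, was called higher (16.4 and 16.8 CPM in the control, 53.8 and 62.2 in HOXA9 OFF), while Hbb-b1 and Hba-a1 did not exceed 0.156 CPM. The part of these cells in the results was not tested. Summed lymphoid markers did not exceed 7.69 CPM, with Cd3e, Cd8a and Ncr1 at 0, and of the markers outside blood only Pecam1, which leukocytes carry too, exceeded 1.11 CPM.

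The summed level of the 49 genes was 8918 and 9904 CPM in the control, 9692 and 8532 in CAF-1 OFF and 7960 and 8266 in HOXA9 OFF. Both HOXA9 OFF libraries thus lay below the other 4, and the CAF-1 OFF libraries overlapped the control. After a filter on low counts (edgeR's filterByExpr), 47 of the 49 genes were tested among 12460. The 2 that did not pass were Psma8, a testis α subunit with 0 counts in 5 libraries and 1 count in HOXA9 OFF 2, and Psmb11, the catalytic β subunit of the thymus, with 0 or 1 count in each library.

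Per kilobase of the longest coding transcript, Psma7 was at the highest level in the control, at 420 ± 47.2 CPM per kb (SD, n = 2). It was followed by Psma6 (347 ± 20.5), Psmb4 (317 ± 28.9) and Psmb1 (313 ± 22.2), and neither Psma6 and Psmb4 nor Psmb4 and Psmb1 differed beyond their spread. At the other end, Psma3 was at 11.3 ± 0.148 CPM per kb, the inhibitor gene Psmf1 at 13.6 ± 0.0166 and the activator gene Psme4 at 24.9 ± 1.65. Reads that matched several places in the genome were not counted, so a gene with near-identical copies can be understated, and levels of different genes are less certain than the changes of 1 gene between libraries.

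**Figure D1:**
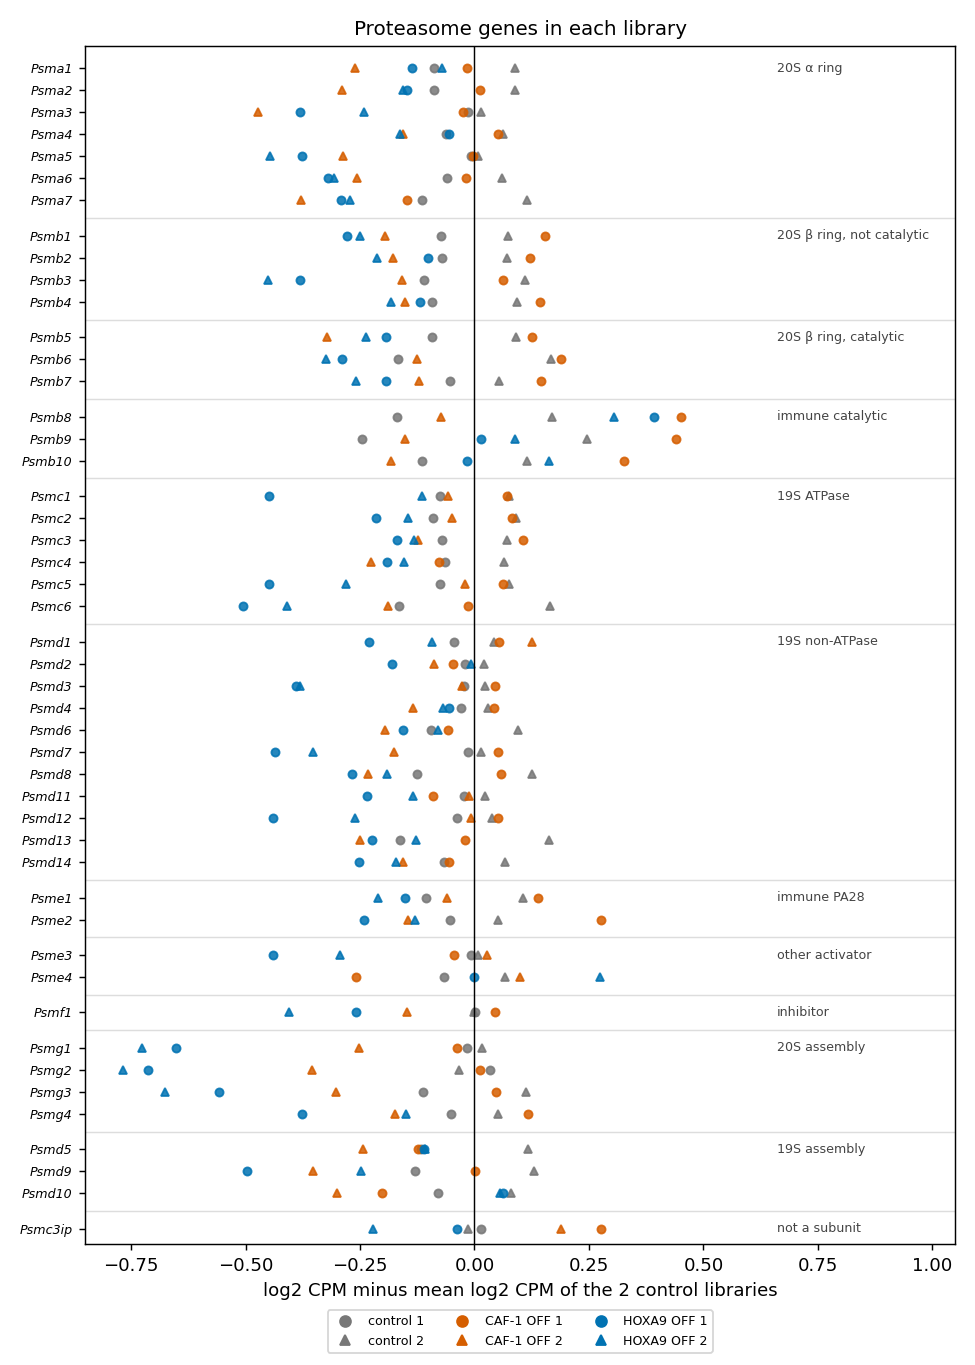
Level of each of the 47 tested proteasome genes in each of the 6 libraries, as log2 CPM minus the mean log2 CPM of the 2 control libraries (x axis), by gene and role (y axis). Circles are library 1 and triangles library 2 of a group, and the blue HOXA9 OFF points lie left of both grey control points for 36 genes.

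In HOXA9 OFF against control, 3 of the 47 genes fell by at least 1.5-fold at FDR under 0.05, and all 3 encode chaperones of 20S assembly: Psmg1, Psmg2 and Psmg3. No member rose. This share of 6.38% was below that of all tested genes, of which 8.97% were called lower and 13% higher, so the number of calls is not a result about the proteasome genes. In bulk RNA, fewer cells of a type and less RNA per cell cannot be told apart, and that holds for each difference below.

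Psmg1 and Psmg2 pair to guide formation of the α ring. Psmg1 was at 81.2 and 83.1 CPM in the control, 80.1 and 69.0 in CAF-1 OFF and 52.2 and 49.6 in HOXA9 OFF. Its log2 fold change in HOXA9 OFF was -0.69 ± 0.11 (SE; 1.61-fold lower, FDR 0.00611). Psmg2 was at 86.6 and 82.5 CPM in the control, 85.2 and 66.1 in CAF-1 OFF and 51.5 and 49.6 in HOXA9 OFF, a log2 fold change of -0.74 ± 0.14 in HOXA9 OFF (1.67-fold lower, FDR 0.00974). For both genes the HOXA9 OFF libraries lay below all 4 others.

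Psmg3, which pairs with Psmg4 in a second chaperone, was at 83.1 and 97.0 CPM in the control, 92.7 and 72.8 in CAF-1 OFF and 61.0 and 56.1 in HOXA9 OFF. It fell by 1.54-fold in HOXA9 OFF (log2 fold change -0.62 ± 0.15, FDR 0.0231). Its partner Psmg4 was at 24.7 and 26.5 CPM in the control and at 19.7 and 23.0 in HOXA9 OFF. The HOXA9 OFF libraries did not overlap the control for Psmg4 either, but its log2 fold change of -0.26 ± 0.16 did not pass the test (FDR 0.26). Of the 3 calls, Psmg1 was called whichever library was left out, whereas Psmg2 was lost without control 1 or either HOXA9 OFF library and Psmg3 without control 2 or either HOXA9 OFF library, and Psmc6 was called as well without control 1.

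**Figure D2:**
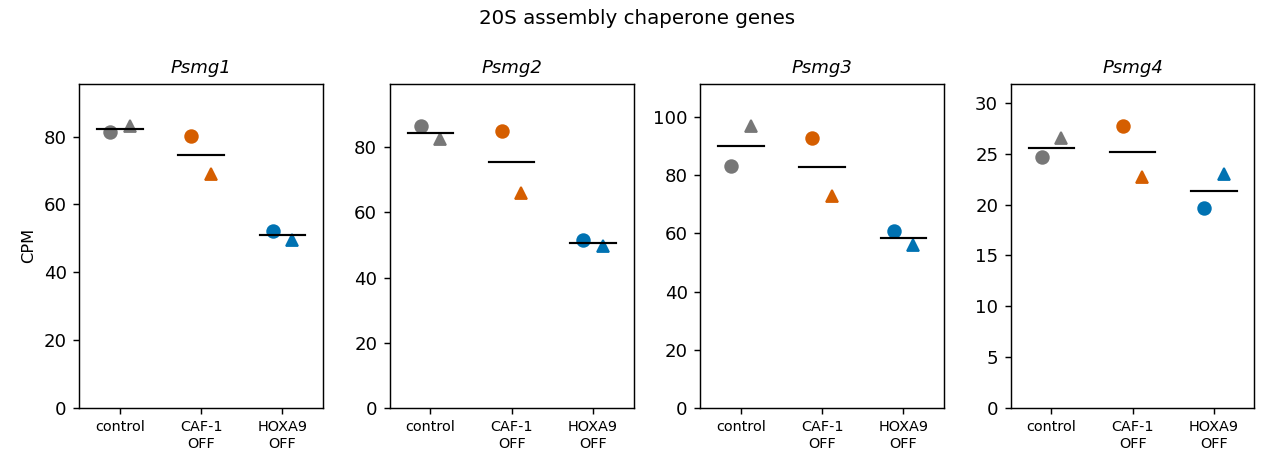
CPM (y axes, each from 0 with a scale of its own) of the 4 genes for 20S assembly chaperones in the 2 libraries of each group. Circles are library 1, triangles library 2 and bars the mean of both. For Psmg1, Psmg2 and Psmg3 both HOXA9 OFF libraries lie below the other 4, and for Psmg4 one of them lies between the CAF-1 OFF libraries.

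With no minimum fold, 11 of the 47 genes had FDR under 0.05 in HOXA9 OFF, all lower, which is 23.4% against 13.8% of all genes lower (and 16% higher). Beside the 3 chaperone genes these were Psma5, Psmb3, Psmc5, Psmc6, Psmd3, Psmd7, Psmd12 and Psme3. At an FDR under 0.01 only Psmg1 and Psmg2 remained. The count was lower when a library of either group was left out, at 3 without control 1, 2 without control 2 and 1 without either HOXA9 OFF library, and was 12 without either CAF-1 OFF library.

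Each of the 31 constitutive subunit genes had a fold change below 0 in HOXA9 OFF, of which 7 had FDR under 0.05, with a median log2 fold change of -0.22 and a range from -0.47 to -0.06, against a median of -0.0035 over all genes tested, of which 50.2% were below 0. For 26 of the 31, or 83.9%, both HOXA9 OFF libraries lay below both control libraries, as they did for 36 of the 47 proteasome genes (76.6%) and for 35.9% of all genes. The reverse order was found for 1 proteasome gene, Psmb8, and for 35.1% of all genes. Leaving out single libraries, the median of the constitutive subunits lay between -0.31 (without control 1) and -0.14 (without control 2), and all 31 stayed below 0 each time. These subunits share libraries and are not replicates of each other, so no test was made over the set.

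Across genes, the HOXA9 OFF fold change correlated with log2 transcript length by r = 0.035 over 11444 tested genes and 0.22 over the 47, as a description. Median length of the 47 genes was 1430 bases, and over all tested genes with transcripts of 800 to 2500 bases (n = 4078) the median log2 fold change in HOXA9 OFF was -0.085. The part of length in the result was not tested. Maturation markers moved with the same contrast: the 9 genes rose in HOXA9 OFF by a median log2 fold change of 6.25, and their part was not tested.

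In the α ring, which forms the gate of the barrel, Psma5 was at 82.0 and 82.8 CPM in the control and at 63.4 and 60.4 in HOXA9 OFF (log2 fold change -0.41 ± 0.12, FDR 0.0458), the largest drop of the ring. The smallest difference was that of Psma1, at 279 and 315 CPM in the control and 270 and 283 in HOXA9 OFF (-0.11 ± 0.12, FDR 0.55). Psma7, the most abundant per length, was at 353 and 414 CPM in the control and 312 and 316 in HOXA9 OFF, which did not pass the test (FDR 0.131).

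Among β subunits without a catalytic site, Psmb3 fell from 84.7 and 98.6 CPM to 70.2 and 66.9 (log2 fold change -0.42 ± 0.13, FDR 0.0476). Psmb4 differed least (-0.15 ± 0.13, FDR 0.417). Of the constitutive catalytic subunits none passed. Psmb5, which cuts after hydrophobic residues, was at 83.0 and 94.3 CPM in the control and 77.4 and 75.0 in HOXA9 OFF. Psmb6 was at 181 and 228 CPM against 166 and 162, and Psmb7 at 284 and 306 against 258 and 247. For all 3, HOXA9 OFF lay below the control without overlap, as it did for 35.9% of all genes. Their log2 fold changes were -0.22, -0.32 and -0.23, with FDR between 0.166 and 0.351.

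Of the 6 ATPases of the 19S ring, Psmc6 was at 199 and 250 CPM in the control and 157 and 168 in HOXA9 OFF (log2 fold change -0.47 ± 0.14, FDR 0.0434), the largest drop of any constitutive subunit. Psmc5 fell from 216 and 240 CPM to 167 and 187 (-0.36 ± 0.11, FDR 0.0468), and the smallest difference was in Psmc3 (-0.15 ± 0.11, FDR 0.361). HOXA9 OFF lay below the control without overlap for each of the 6 ATPase genes, as it did for 35.9% of all genes.

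Among the 11 non-ATPase subunits, Psmd3 was at 311 and 321 CPM in the control, 326 and 310 in CAF-1 OFF and 241 and 243 in HOXA9 OFF. Its drop in HOXA9 OFF (log2 fold change -0.39 ± 0.091, FDR 0.021) had the lowest FDR of the constitutive set. Psmd7, partner of the deubiquitinase subunit Psmd14, fell from 285 and 291 CPM to 213 and 225 (-0.39 ± 0.11, FDR 0.0371), and the lid subunit gene Psmd12 from 199 and 210 to 151 and 171 (-0.35 ± 0.10, FDR 0.0456). Psmd4, a ubiquitin receptor, differed least, at 195 and 203 CPM against 191 and 190 (-0.06 ± 0.10, FDR 0.685).

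Regulators outside the core did not share 1 direction. Psme3, which forms the nuclear PA28γ activator, fell from 389 and 393 CPM to 288 and 319 in HOXA9 OFF (log2 fold change -0.36 ± 0.099, FDR 0.0325). Psme4, which encodes the activator PA200, was at 154 and 169 CPM in the control and 161 and 195 in HOXA9 OFF, overlapping (0.14 ± 0.16, FDR 0.534). The inhibitor gene Psmf1 was at 51.9 and 51.8 CPM in the control and 43.3 and 39.2 in HOXA9 OFF (-0.33 ± 0.12, FDR 0.0805).

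Chaperones of the 19S cap were not among the calls. Psmd9 was at 88.6 and 106 CPM in the control and 68.7 and 81.6 in HOXA9 OFF (-0.37 ± 0.17, FDR 0.136), and Psmd10, known also as the oncoprotein gankyrin, at 49.2 and 54.9 against 54.3 and 54.0 (0.06 ± 0.11, FDR 0.733). Psmc3ip fits the symbol rule but acts in meiotic recombination, and it stood at 37.0 and 36.2 CPM in the control and 35.7 and 31.3 in HOXA9 OFF (-0.13 ± 0.12, FDR 0.466).

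**Figure D3:**
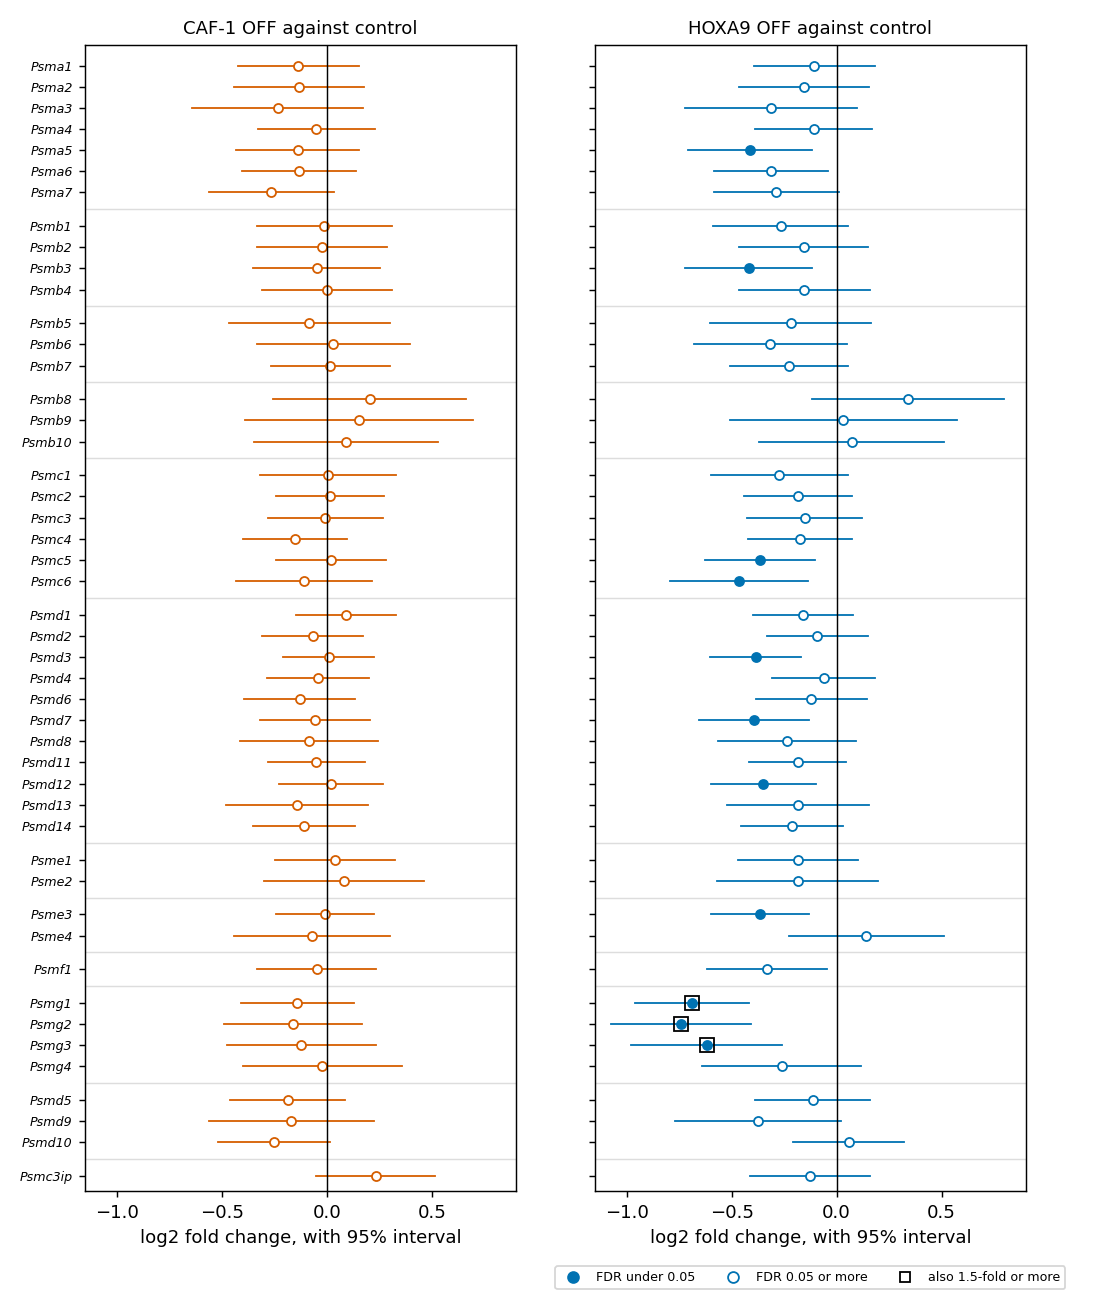
Log2 fold change with its 95% interval (x axes) for the 47 tested proteasome genes, by role in the same order (y axis), in CAF-1 OFF against control (left) and HOXA9 OFF against control (right). Filled circles have FDR under 0.05 and squares also changed by 1.5-fold or more: none on the left, and on the right 11 filled circles, 3 of them in squares.

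None of the 5 immune genes passed the test in HOXA9 OFF, and the 3 catalytic ones had fold changes above 0, of which those of Psmb9 and Psmb10 turned below 0 when library sizes were left unscaled. Psmb8, the immune counterpart of Psmb5, was at 160 and 203 CPM in the control, 246 and 171 in CAF-1 OFF and 236 and 222 in HOXA9 OFF. Both HOXA9 OFF libraries lay above the control, and the log2 fold change was 0.34 ± 0.19 (95% interval -0.12 to 0.80, FDR 0.227). Psmb8 lies at chr17:34334666-34338399 on the plus strand (mm9), and an exon of Gm20496 overlaps it on the opposite strand. On their own strand, Psmb5 overlaps Mir686 and Psmd1 overlaps Armc9.

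Psmb9, counterpart of Psmb6, was at 91.2 and 128 CPM in the control, 147 and 97.3 in CAF-1 OFF and 109 and 115 in HOXA9 OFF. Its 2 HOXA9 OFF libraries fell between those of the control (log2 fold change 0.03 ± 0.23, FDR 0.931). The gene lies at chr17:34318932-34324697 on the minus strand, where its exons overlap those of Tap1 on the plus strand, and the strand setting of the counting was not given in the sources used here. Psmb10, counterpart of Psmb7, was at 60.4 and 70.8 CPM in the control, 82.0 and 57.6 in CAF-1 OFF and 64.7 and 73.2 in HOXA9 OFF, which overlapped too (0.07 ± 0.19, FDR 0.805). Unscaled, the values of Psmb9 and Psmb10 were -0.050 and -0.0089.

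Both PA28 genes had fold changes below 0 in HOXA9 OFF. Psme1 was at 137 and 159 CPM in the control, 162 and 141 in CAF-1 OFF and 132 and 127 in HOXA9 OFF, a log2 fold change of -0.18 ± 0.12 (FDR 0.291). Psme2 was at 37.7 and 40.5 CPM in the control, 47.3 and 35.4 in CAF-1 OFF and 33.1 and 35.7 in HOXA9 OFF (-0.19 ± 0.16, FDR 0.426). For both genes the HOXA9 OFF libraries lay below the control without overlap, as they did for 35.9% of all genes.

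A ratio of 2 genes within a library does not depend on library scaling. The log2 ratio of Psmb8 to Psmb5 counts was 0.95 and 1.10 in the control, 1.35 and 1.27 in CAF-1 OFF and 1.61 and 1.57 in HOXA9 OFF. The 3 groups followed each other without overlap, with HOXA9 OFF 1.48-fold and CAF-1 OFF 1.22-fold above the control. Psmb9 to Psmb6 was -0.99 and -0.83 in the control, -0.66 and -0.93 in CAF-1 OFF and -0.60 and -0.49 in HOXA9 OFF. HOXA9 OFF was 1.28-fold above the control, and CAF-1 OFF overlapped it. Psmb10 to Psmb7 was -2.23 and -2.11 in the control, -1.99 and -2.24 in CAF-1 OFF and -2.00 and -1.75 in HOXA9 OFF, which was 1.23-fold above the control.

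In HOXA9 OFF all 3 ratios were thus higher in both libraries than in either control library. An exact two-sided permutation test over 2 against 2 libraries cannot go below p = 0.333, which is the value for each of the 3 differences, so these ratios are a description. The immune genes Psmb9 and Psmb10 themselves overlapped the control, with log2 fold changes of 0.03 and 0.07. Their counterparts Psmb6 and Psmb7 were at -0.32 and -0.23. For the remaining pair, Psmb8 was at 0.34 and Psmb5 at -0.22.

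**Figure D4:**
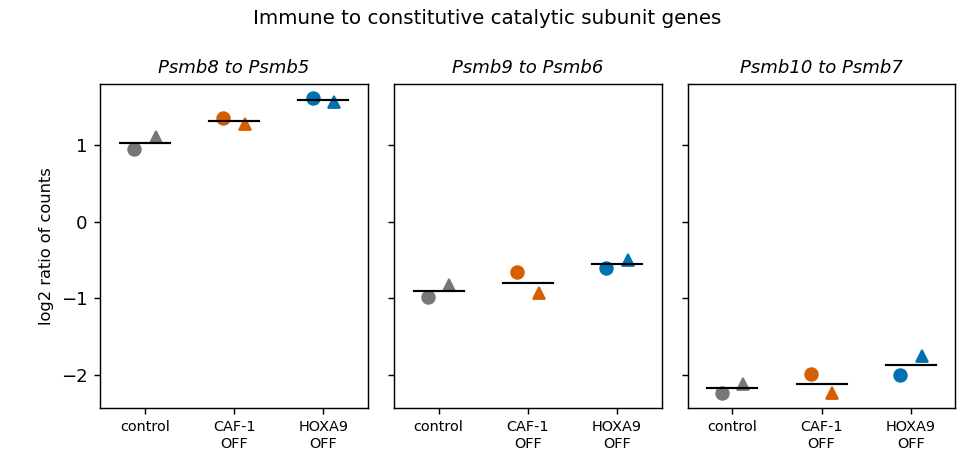
Log2 ratio of counts (y axis, shared) of each immune catalytic gene to its constitutive counterpart in each library. Circles are library 1, triangles library 2 and bars the mean of both. For all 3 pairs both HOXA9 OFF points lie above both control points, and CAF-1 OFF does so only for Psmb8 to Psmb5.

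In CAF-1 OFF against control no proteasome gene passed the test. None of the 47 was called, none had FDR under 0.05 and none had an unadjusted p under 0.05, by edgeR or by DESeq2, while 0.0321% of all tested genes (4, with Chaf1b among them) were called by edgeR and 1.54% (192) by DESeq2. Fold changes ran from -0.26 (Psma7, 353 and 414 CPM in the control and 345 and 294 in CAF-1 OFF, FDR 0.516) to 0.23 (Psmc3ip, FDR 0.548) on the log2 scale. The lowest FDR, 0.485, was that of Psmd10, which stood at 45.2 and 42.2 CPM, below both control libraries (-0.25 ± 0.11 on the log2 scale). The 95% intervals reached at most from -0.64 to 0.70, so that a change by 1.67-fold or more, as seen for Psmg2 in HOXA9 OFF, lay outside all of them in either direction.

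The median log2 fold change in CAF-1 OFF was -0.05 for the 47 genes and for the 31 constitutive subunits, with 22 of the 31 below 0, against -0.0044 over all genes. The median of the 31 turned positive, to 0.067 without CAF-1 OFF 2 (11 of 31 below 0) and to 0.040 without control 2 (13 of 31). It was -0.17 without CAF-1 OFF 1 and -0.11 without control 1, with 30 of 31 below 0 in each. Groups did not overlap for 2 genes higher and 7 lower of 47 (4.26% and 14.9%), against 20.1% and 20% of all genes. The α ring had all 7 genes below 0 (median -0.14, range -0.26 to -0.05), and all 4 genes of 20S assembly chaperones and all 3 of 19S chaperones were below 0 too. Without CAF-1 OFF 2 these numbers were 4 of 7 (median -0.0024), 1 of 4 and 2 of 3, and without control 2 they were 6 of 7, 2 of 4 and 3 of 3. Without CAF-1 OFF 1 or control 1 all genes of these 3 groups stayed below 0, and the α ring median was -0.29 and -0.21. By role, the largest positive values were those of the catalytic Psmb6 (0.03), the ATPase Psmc5 (0.02) and the non-ATPase Psmd1 (0.09), and the largest negative ones those of Psmb5 (-0.08), Psmb3 (-0.05), Psmc4 (-0.15), Psmd13 (-0.14) and Psmg2 (-0.16).

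All 5 immune genes were above 0 in CAF-1 OFF, with log2 fold changes of 0.20 for Psmb8, 0.15 for Psmb9, 0.09 for Psmb10, 0.04 for Psme1 and 0.08 for Psme2 and FDR of 0.758 or more. The ranges of both groups overlapped for each of them, with CAF-1 OFF 1 above both control libraries and CAF-1 OFF 2 below the higher one. Without CAF-1 OFF 1 all 5 turned negative, to values between -0.19 (Psmb10) and -0.068 (Psme1), so the direction depended on that library. The choice of control library mattered too. The CAF-1 OFF mean lay below control 2 for Psmb9 (122 against 128 CPM), Psmb10 (69.8 against 70.8) and Psme1 (152 against 159). It lay above control 2 for Psmb8 and Psme2.

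In the control and in CAF-1 OFF most proteasome genes differed between the 2 libraries in the same direction. In the control 44 of the 47 genes were higher in library 2, by a median of 0.14 on the log2 scale, and in CAF-1 OFF 43 of 47 were higher in library 1, by 0.23. In HOXA9 OFF the libraries were closer, with 29 higher in library 2 and a median difference of 0.036 in size. Over all tested genes the medians of the same differences were at most 0.0035 in size. Within CAF-1 OFF the immune genes differed most, by a median of 0.51 against 0.29 for the 20S core and 0.13 for the 19S cap. The difference between the control libraries was thus of the size of much of the HOXA9 OFF difference (median -0.22), while the groups did not overlap for 26 of the 31 constitutive subunits.

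These differences went with transcript length most in CAF-1 OFF. Over the 47 genes, Pearson's r of the difference with log2 transcript length was -0.54 in CAF-1 OFF, 0.20 in the control and -0.38 in HOXA9 OFF. Over all 11444 genes with a length it was -0.35, 0.15 and -0.049. Genes share their libraries and are not independent, so these correlations are descriptions, and their part in the results was not tested.

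**Figure D5:**
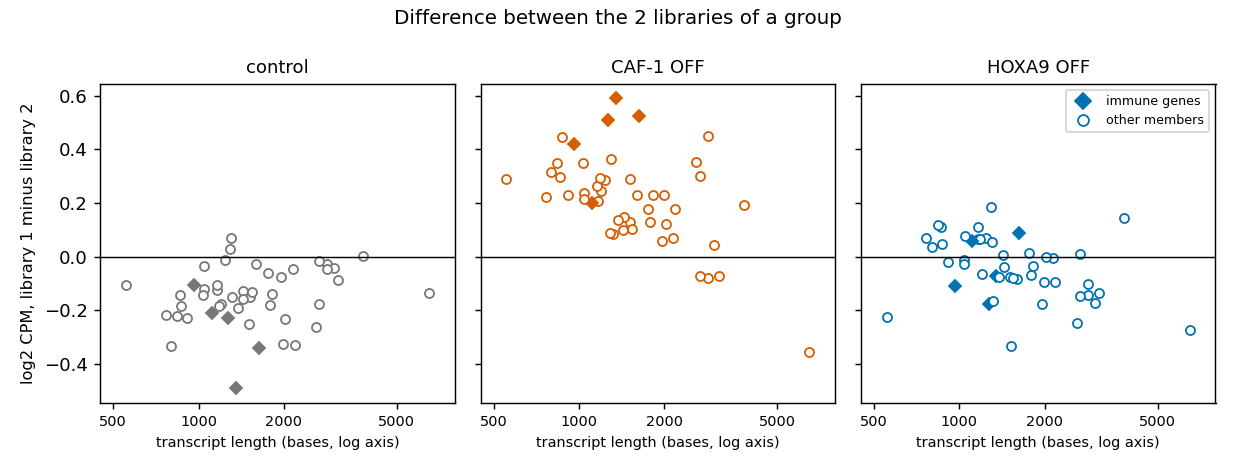
Log2 CPM of library 1 minus library 2 of each group (y axis) for the 47 tested proteasome genes against the length of the longest coding transcript (x axis, log scale). Filled diamonds are the 5 immune genes. In CAF-1 OFF 43 points lie above 0, in the control 44 lie below 0, and in HOXA9 OFF 18 lie above 0.

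CAF-1 OFF and HOXA9 OFF were also compared directly. Both comparisons above share the control libraries, and this one shares libraries with each of them, so its values stand beside theirs and are no independent evidence. No proteasome gene was called (edgeR, with 13 at an unadjusted p under 0.05), and DESeq2 called 1, Psmg2. Of all genes 9.56% were called higher and 12.6% lower in CAF-1 OFF. With no minimum fold, 7 genes had FDR under 0.05, all higher in CAF-1 OFF (14.9%, against 14.3% of all genes higher and 15.9% lower), so the share was near that of all genes.

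The 7 were Psmg1 (log2 difference 0.55 ± 0.11, FDR 0.0141), Psmg2 (0.58 ± 0.14, FDR 0.0226), Psmg3 (0.50 ± 0.15, FDR 0.0463), Psmd3 (0.39), Psmc5 (0.38), Psmd12 (0.37) and Psme3 (0.36). Psmg1 to Psmg3 were called without CAF-1 OFF 2, and without either HOXA9 OFF library no gene had FDR under 0.05. Without CAF-1 OFF 1 the number was 1, and without either control library 3. Across the 31 constitutive subunits the median was 0.15, with 29 higher and 2 lower in CAF-1 OFF. It was 0.055 without CAF-1 OFF 1, where 13 of the 31 were lower, and 0.31 without CAF-1 OFF 2, where 0 were. Groups did not overlap for 24 genes higher (51.1%) and 2 lower, Psmd5 and Psmd10, against 33% and 33.7% of all genes. Among the immune genes Psmb8 was lower in CAF-1 OFF (-0.14 ± 0.19), Psmb9 (0.12), Psmb10 (0.02), Psme1 (0.22) and Psme2 (0.27) higher, with FDR of 0.205 or more.

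Of 50 other genes of the ubiquitin and proteasome pathway, 48 were found and tested. In CAF-1 OFF none was called (4 at an unadjusted p under 0.05, and 1, Irf8, called when no low-count filter was used). In HOXA9 OFF 5 rose and 3 fell (10.4% and 6.25%, against 13% and 8.97% of all tested genes), so the count is not a result about the pathway. Among those that rose, Irf8, a transcription factor of the interferon family that acts in monocyte fate, went from 35.6 and 26.9 CPM to 178 and 175 (log2 fold change 2.49 ± 0.41, FDR 0.00605). Tapbp, which helps load peptides on MHC class I, went from 106 and 116 to 191 and 204 (0.83 ± 0.14, FDR 0.0066). Stat2 and Mafg rose as well, though Mafg was not called when library sizes were left unscaled.

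Nlrc5, a transactivator of MHC class I and immune proteasome genes, fell from 51.3 and 61.1 CPM to 14.1 and 27.6 (log2 fold change -1.43 ± 0.30, FDR 0.0143). Ubqln4, whose protein carries ubiquitinated substrates to the proteasome, went from 132 and 135 CPM to 81.5 and 78.0 (-0.75 ± 0.095, FDR 0.00254). Tap1, which shares its start region with Psmb9, did not pass (159 and 189 CPM in the control, 157 and 173 in HOXA9 OFF, FDR 0.71), nor did B2m (655 and 836 against 859 and 970, FDR 0.305).

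Nfe2l1, Nfe2l2, Pomp and Adrm1 were not called in any of the 3 comparisons. Nfe2l1, the factor that raises subunit transcription when proteasome activity falls short, was at 273 and 309 CPM in the control, 249 and 286 in CAF-1 OFF and 238 and 299 in HOXA9 OFF, overlapping in both comparisons. Nfe2l2 was at 92.4 and 111 CPM in the control, 135 and 122 in CAF-1 OFF and 94.1 and 128 in HOXA9 OFF (log2 fold change 0.34 ± 0.17 in CAF-1 OFF, FDR 0.538). Pomp, which completes 20S assembly, was at 288 and 304 CPM in the control and 268 and 268 in HOXA9 OFF (-0.14 ± 0.14, FDR 0.468), and the ubiquitin receptor gene Adrm1 at 18.9 and 22.1 against 18.3 and 18.5 (-0.15 ± 0.15, FDR 0.482). Shfm1, which encodes a small subunit of the 19S cap and is named here after its values were seen, went the other way, at 280 and 247 CPM in the control, 296 and 257 in CAF-1 OFF and 438 and 322 in HOXA9 OFF. Both HOXA9 OFF libraries lay above the control, and its log2 fold change of 0.53 ± 0.17 did not pass the test (FDR 0.0528) but was called without HOXA9 OFF 2. The 5 listed genes whose proteins bind the finished proteasome, such as the deubiquitinase Usp14, were all below 0 in HOXA9 OFF (median -0.27, lowest FDR 0.0659) without a call.

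Directly between CAF-1 OFF and HOXA9 OFF, 3 pathway genes were higher in CAF-1 OFF and 5 lower (6.25% and 10.4%, against 9.56% and 12.6% of all tested genes). Among the largest differences were those of Nlrc5 (1.25 ± 0.30), Maff (1.14 ± 0.26) and Ubqln4 (0.83 ± 0.095) on the higher side and Irf8 (-1.57 ± 0.40) and Tapbp (-0.86 ± 0.14) on the lower, with FDR between 0.00202 and 0.0266.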

How the data were processed

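RNA from 6 bulk libraries (3 groups of 2, by the titles' labels) had been sequenced from a directional kit. The authors mapped reads to mm9 with STAR and deposited raw HTSeq counts per gene symbol. The tally lines for reads outside genes, ambiguous or not unique were kept out of library sizes and tests. Reads in no gene came to between 5.95% and 8.26% of the gene counts. The not unique tally came to 100% and 107% of the gene counts in the control, 107% and 92.8% in CAF-1 OFF and 91.2% and 89.6% in HOXA9 OFF. Its part in the results was not tested. Annotation and strand setting were not given in the sources used here.

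Counts were tested in edgeR 4.0.16 (R 4.3.3, limma 3.58.1): filterByExpr by group, TMM and a quasi-likelihood fit to all 6 libraries with group only, with Benjamini-Hochberg FDR over all genes tested. The 2 libraries of a group share 1 spread estimate with the others. Called genes had a fold change of at least 1.5 and FDR under 0.05. Scripts were tested on simulated data. Gene positions and lengths came from GENCODE (NCBIM37), promoters from RefSeq (GRCm38.p6). Ratios added 0.5 to each count. DESeq2 1.42.0, other scalings, filters and samples were alternatives.

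Members and lists were chosen with earlier results of these data known. Named were the immune genes and counterparts, genes past a threshold, extremes of each role, genes failing the filter, Psmc3ip and, of the pathway list, 6 set genes and the 3 largest calls each way, of which some are not reported here.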

Additional observations from a re-analysis of the deposited data

Results flagged for a closer look

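Psme2b-ps, a pseudogene copy related to Psme2 that the symbol rule leaves out, is brought up because it carried counts and because these were higher in HOXA9 OFF than in the control. Its level was 2.27 and 2.12 CPM in HOXA9 OFF (mean 2.19), 0.864 and 1.10 in the control and 1.09 and 0.658 in CAF-1 OFF, from 13 to 47 counts in a library. Psme2 itself was lower in both HOXA9 OFF libraries than in either control library. Reads of such a copy and of its parent can be hard to tell apart. Groups of 2 libraries were not tested for a single library far from the others.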

How the results depend on the processing

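No gene of the proteasome was called in CAF-1 OFF against control under any alternative run. In HOXA9 OFF against control the calls of Psmg1, Psmg2 and Psmg3 were made under both other scalings, both other filters, DESeq2, the 4-library fit and the replicate block, and numbered between 1 and 3 when libraries were left out and 0 at 2-fold and FDR under 0.01. In CAF-1 OFF against HOXA9 OFF, where none was called, there was 1 call with DESeq2 size factors, 1 with a mean CPM of at least 5, 1 in the 4-library fit, 1 with DESeq2's test and 2 by library size alone, and from 0 to 3 when libraries were left out. Genes with FDR under 0.05 in HOXA9 OFF numbered 2 at FDR under 0.01 and from 1 to 12 with a library left out. In the direct comparison there were 3 in the 4-library fit, 0 at FDR under 0.01 and from 0 to 9 with a library left out. The cause was not tested, and the fits with fewer libraries rest on a lone sample assumed to vary like the other groups.

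Same-numbered libraries deviated together for control and HOXA9 OFF (correlation of 0.46 across 12460 genes) but not for control and CAF-1 OFF (-0.18) or CAF-1 OFF and HOXA9 OFF (0.033), and the labels state no pairing, so replicate numbers were not read as pairs. A replicate block gave 5 genes with FDR under 0.05 in HOXA9 OFF and 4 in the direct comparison, 0 in CAF-1 OFF, and it changed no call. A crossed pairing, chosen after seeing the data, with the CAF-1 OFF numbers swapped, gave 0, 12 and 10 genes with FDR under 0.05 in CAF-1 OFF, HOXA9 OFF and the direct comparison.

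Pathway calls numbered 1 in CAF-1 OFF without a low-count filter. At 2-fold and FDR under 0.01 they numbered 2 in HOXA9 OFF and 1 in the direct comparison, and with a library left out from 5 to 9 and from 5 to 8. The median of the constitutive subunits in the direct comparison lay between 0.055 and 0.31 with a library left out.

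Several small log2 fold changes turned sign when a library was left out. In CAF-1 OFF against control the ranges were -0.33 to 0.14 for Psmb5, -0.14 to 0.22 for Psmb6, -0.13 to 0.16 for Psmb7, -0.087 to 0.46 for Psmb8, -0.18 to 0.44 for Psmb9, -0.19 to 0.34 for Psmb10, -0.068 to 0.16 for Psme1, -0.15 to 0.29 for Psme2, -0.24 to 0.094 for Psme4 and -0.18 to 0.13 for Psmg4. In HOXA9 OFF against control they were -0.20 to 0.30 for Psmb9, -0.046 to 0.19 for Psmb10 and -0.028 to 0.14 for Psmd10, and by library size alone these genes were at -0.050, -0.0089 and -0.024. In the direct comparison they were -0.11 to 0.36 for Psmb5, -0.42 to 0.12 for Psmb8, -0.20 to 0.41 for Psmb9 and -0.26 to 0.27 for Psmb10. Library size alone moved the median of all genes to -0.084 in HOXA9 OFF and that of the constitutive subunits to -0.30, a difference of the same sign relative to it. With 2 libraries a group, some changes under 1.5-fold in HOXA9 OFF had FDR under 0.05 and others of like size did not. A gene that did not pass is thus not shown to be unchanged.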
